A study of Homo sapiens with 3 samples.

Results

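HSP90 and its cochaperones were examined in H660 cells treated with the HSP70 inhibitor JG231. The group holds 10 genes, which were chosen by name and taken from a table of 58735 genes, where each of the 10 has 1 row. They are the cytosolic chaperones HSP90AA1 and HSP90AB1, the mitochondrial paralog TRAP1, and the cochaperones STIP1, CDC37, AHSA1, PTGES3, CHORDC1, FKBP4 and FKBP5. H660 (NCI-H660) is an established human neuroendocrine prostate cancer line, described as parental, and JG231 acts on HSP70 at an allosteric site. Cells received DMSO vehicle, 2.5 µM JG231 or 5 µM JG231 for 24 h, and 1 RNA-seq library of each condition was analysed, so no replicate error exists and no significance test was made. The culture medium of H660 cells contained hydrocortisone, a glucocorticoid, and estradiol, which are ligands of steroid receptors that HSP90 serves.

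HSP90 is an ATP-driven chaperone dimer that finishes the folding and activation of client proteins, among them many protein kinases and the steroid hormone receptors. HSP70 binds a client first, and STIP1 (also called HOP) holds HSP70 and HSP90 together while the client is passed on. CDC37 brings kinases, AHSA1 speeds up the ATPase, PTGES3 (p23) slows it and holds the closed state, and FKBP4 and FKBP5 (FKBP52 and FKBP51) are immunophilins that join the late complex with steroid receptors. HSP90AA1 is known as the more stress-inducible cytosolic form and HSP90AB1 as the more constitutive one, and heat shock factor 1 (HSF1) drives such genes through heat shock elements, arrays of GAA and TTC units in alternating orientation.

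Heat shock elements are shown here because they are the DNA feature that part of the group shares by sequence. The 250 bases before the start sites of RefSeq (GRCh38.p14) were searched on both strands for the 3-unit arrays GAANNTTCNNGAA and TTCNNGAANNTTC, which are reverse complements of each other. Of the 10 genes, all but FKBP4 had an entry, with 15 start sites in all. An array was present before 3 of the 15 start sites, 1 each of HSP90AA1, HSP90AB1 and CHORDC1, whereas 0.441% of all 35116 promoters held one. The stretches that carry the arrays are given 5′ to 3′ on the strand of the gene, with the arrays in capitals, and they lie at chr14:102087112-102087157 (minus strand), chr6:44247753-44247851 (plus strand) and chr11:90223079-90223134 (minus strand).
HSP90AA1: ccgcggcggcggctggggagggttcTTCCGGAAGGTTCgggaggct
HSP90AB1: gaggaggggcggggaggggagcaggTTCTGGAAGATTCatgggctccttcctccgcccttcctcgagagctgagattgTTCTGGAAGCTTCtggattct
CHORDC1: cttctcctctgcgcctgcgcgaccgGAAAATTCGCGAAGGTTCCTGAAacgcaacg
Counted back from the start site, HSP90AA1 had 1 array beginning at position -88, and HSP90AB1 had 2 separate arrays beginning at -165 and -112. In CHORDC1, 3 overlapping arrays formed a single run from -60 to -38. The shorter 2-unit words GAANNTTC and TTCNNGAA, which lie within the arrays, were found before 11.6% of all promoters and, within the group, before the same 3 start sites alone. The E-box CACGTG, the word bound by the Myc family, occurred before 1 start site of FKBP5 and before 6.34% of all promoters. A match describes the letters of the window and not occupancy by a factor.

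Levels were analysed as deposited, in FPKM, fragment counts corrected for transcript length and for the size of the library. Steps in the low values correspond to 16.1 M fragments in DMSO, 20.4 M at 2.5 µM and 24.1 M at 5 µM. Mitochondrial transcripts took 39.8% of the FPKM sum in DMSO, 24.1% at 2.5 µM and 28.8% at 5 µM, which moves the values of all other genes, and genes with long transcripts were lower relative to short ones in both JG231 libraries. Across 11200 protein-coding genes, the Spearman correlation of the change with transcript length was -0.26 at 2.5 µM and -0.37 at 5 µM. The part of these shifts in each value below was not tested beyond the rescaled values given beside it. The neuroendocrine markers SYP, CHGA, ENO2, NCAM1 and INSM1 were at 6.16 FPKM or more in DMSO, while the luminal gene KLK2 was listed at 0 and KLK3 was at 0.134 FPKM, so the line was neuroendocrine by these markers although its label reads adenocarcinoma. Of the 5 neuroendocrine markers, 4 were lower at 2.5 µM, INSM1 being higher, and 5 were lower at 5 µM, past a log2 change of 0.25. By the same threshold, 43.4% of all genes above 1 FPKM in either library were lower at 2.5 µM and 45.1% at 5 µM. SYP was close to the threshold at 5 µM, at -0.252. Of the 5 markers CHGA moved furthest, with 46.0, 15.1 and 12.7 FPKM in DMSO, 2.5 µM and 5 µM, log2 changes of -1.61 and -1.84. The number of genes above 0 FPKM was 21862, 19352 and 17293 in the same order, while the fragment totals rose. These shifts accompany the lower HSP90AA1 and HSP90AB1 values, and their part in them was not tested.

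In DMSO the transcripts of the group spanned a wide range of levels per length. HSP90AB1 was the most abundant at 618 FPKM, which was rank 24 of all genes, followed by HSP90AA1 at 296 FPKM and PTGES3 at 234 FPKM. STIP1 had 68.2 FPKM, CDC37 56.0 FPKM and AHSA1 29.0 FPKM. FKBP4 at 11.4 FPKM and TRAP1 at 10.8 FPKM were close to each other, and so were CHORDC1 at 6.48 FPKM and FKBP5 at 5.78 FPKM. The order changed at 2 places with treatment. PTGES3 stood above HSP90AA1 at both JG231 doses, and CDC37 stood above STIP1 at 2.5 µM but not at 5 µM.

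**Figure D1:**
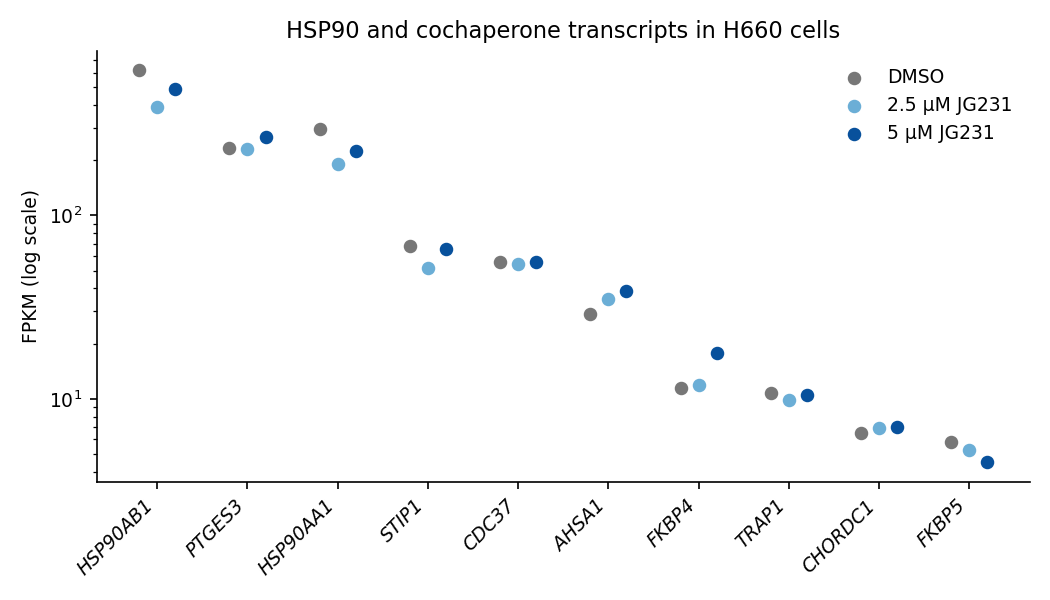
FPKM on a log axis for the 10 genes, ordered by mean level, with 1 point per library (DMSO, 2.5 µM and 5 µM JG231). Within a gene, the DMSO point is the highest for HSP90AA1, HSP90AB1, TRAP1, STIP1, CDC37 and FKBP5. It is the lowest for AHSA1, CHORDC1 and FKBP4, and FKBP4 stands apart at 5 µM.

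Changes were computed against DMSO as log2((FPKM + 0.1)/(DMSO + 0.1)), with the pseudocount of the study's methods, and a gene was called higher or lower when its change was past 0.25 and its FPKM exceeded 1 in at least 1 of the libraries compared. By this rule 1 of 10 members was higher and 3 were lower at 2.5 µM, whereas 36.4% of the 15746 genes tested were higher and 43.4% were lower. At 5 µM 2 members were higher and 3 were lower, beside 36.5% and 45.1% of 15765 genes. A log2 change of 1 was passed by 0 members in either direction. It was exceeded upward by 12.9% of genes and downward by 21.7% at 2.5 µM, and by 14.7% and 24.3% at 5 µM. The median over the members was -0.09 at 2.5 µM and -0.03 at 5 µM, beside -0.08 and -0.11 over all genes tested.

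**Figure D2:**
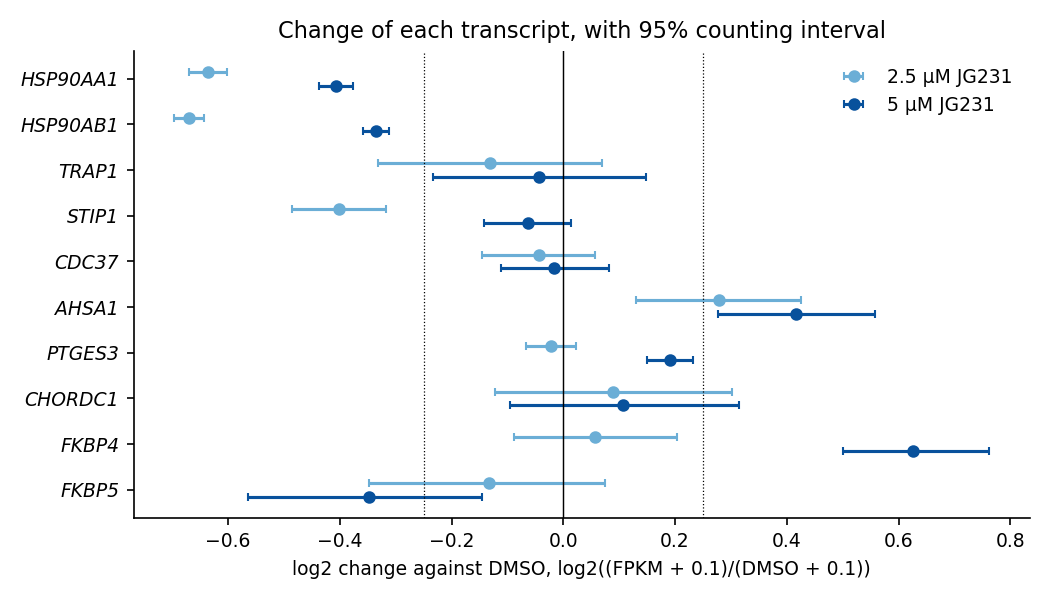
Log2 change against DMSO for each gene at 2.5 µM (light blue) and 5 µM (dark blue) JG231, with bars for the 95% interval from fragment counting and dotted lines at the 0.25 threshold. Both cytosolic HSP90 genes lie left of the threshold at both doses, AHSA1 lies right of it at both, and FKBP4 does so at 5 µM.

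The cytosolic HSP90 transcripts were lower at both doses. HSP90AA1 (ENSG00000080824, chromosome 14, 102080742 to 102139699, minus strand) had 296 FPKM in DMSO, 190 FPKM at 2.5 µM and 223 FPKM at 5 µM. Its JG231 values were 0.643 and 0.754 of the DMSO value, log2 changes of -0.64 and -0.41. HSP90AB1 (ENSG00000096384, chromosome 6, 44246166 to 44253888, plus strand) had 618 FPKM in DMSO, 389 FPKM at 2.5 µM and 490 FPKM at 5 µM, log2 changes of -0.67 and -0.34. In both genes the DMSO library was highest and the 2.5 µM library lowest, so the values did not follow the order of dose. A lower value in such bulk RNA cannot tell less RNA per cell from fewer cells that carry it.

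These shifts were larger than counting error. About 15372 fragments of HSP90AA1 and 25422 of HSP90AB1 were present in DMSO, computed with the length of the canonical transcript, and the 95% intervals at 5 µM were -0.44 to -0.38 and -0.36 to -0.31. The intervals cover counting error only, since reads copied by PCR are not independent molecules. As a scale for a single gene, the difference between the 2 JG231 libraries had a robust standard deviation of 0.19 over the 500 genes nearest in mean FPKM, and the change of each HSP90 gene exceeded it at both doses. This spread includes any effect of dose. Those 500 highly expressed genes had a median change of 0.55 at 2.5 µM and 0.69 at 5 µM, opposite in sign to HSP90AA1 and HSP90AB1. In rank, HSP90AA1 moved from 57 in DMSO to 179 and 164 at the JG231 doses, and HSP90AB1 from 24 to 64 and 54.

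The balance between the cytosolic forms was nearly constant. The ratio of HSP90AB1 to HSP90AA1 FPKM was 2.09 in DMSO, 2.04 at 2.5 µM and 2.20 at 5 µM. Their summed FPKM was 914 in DMSO, 579 at 2.5 µM and 714 at 5 µM. Rows of HSP90 pseudogenes amounted to at most 0.394% of the fragments of HSP90AA1 and 0.305% of those of HSP90AB1, the largest being HSP90AA2P and HSP90AB3P. These shares use the length of all annotated exons of a gene, unlike the fragment counts above, which use the canonical transcript. HSP90AA1 shares 197 exonic bases with WDR20 on the opposite strand, a gene at 3.07 to 6.17 FPKM.

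Of the organellar paralogs, TRAP1 (ENSG00000126602, chromosome 16), the mitochondrial form, had 10.8 FPKM in DMSO, 9.82 FPKM at 2.5 µM and 10.4 FPKM at 5 µM, and as deposited its log2 changes of -0.13 and -0.04 had counting intervals that included 0. The changes were past the threshold, at -0.42 at each dose, in a common FPKM sum without mitochondrial and small RNA genes, and at -0.32 and -0.30 with the length trend removed. TRAP1 overlaps DNASE1 on the opposite strand over 1477 exonic bases, and whether counting used the strand is not given, so its value is uncertain. HSP90B1, the form of the endoplasmic reticulum and not one of the 10, had 248 FPKM in DMSO, 135 FPKM at 2.5 µM and 119 FPKM at 5 µM. Its log2 changes were -0.88 and -1.06, the lowest at 5 µM among the other HSP90 partner genes listed.

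Among the adaptors, STIP1 (ENSG00000168439, chromosome 11) had 68.2 FPKM in DMSO, 51.6 FPKM at 2.5 µM and 65.2 FPKM at 5 µM. It was called lower at 2.5 µM, with a log2 change of -0.40 and a counting interval of -0.49 to -0.32, while at 5 µM the change was -0.06 with an interval from -0.14 to 0.01. That the 2.5 µM library alone was called lower held as deposited. In a common FPKM sum without mitochondrial and small RNA genes STIP1 had -0.69 and -0.44, and with the trend of change with transcript length removed it had -0.60 and -0.34, lower at both doses. CDC37 (ENSG00000105401, chromosome 19) had 56.0, 54.3 and 55.4 FPKM in DMSO, 2.5 µM and 5 µM, log2 changes of -0.04 and -0.02 as deposited. Under the same 2 scalings the changes were -0.335 and -0.395, and -0.324 and -0.403, all past the threshold.

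Of the regulators of the ATPase cycle, AHSA1 (ENSG00000100591, chromosome 14) was higher at both doses. It had 29.0 FPKM in DMSO, 35.2 FPKM at 2.5 µM and 38.7 FPKM at 5 µM. The log2 changes were 0.28 and 0.42, with counting intervals of 0.13 to 0.43 and 0.28 to 0.56, and the same spread measure was 0.25 at this level of expression. The direction depended on scaling. With mitochondrial and small RNA genes left out of a common FPKM sum, the changes were -0.01 and 0.04, and with the length trend removed they were -0.051 and -0.045. PTGES3 (ENSG00000110958, chromosome 12) had 234 FPKM in DMSO, 230 FPKM at 2.5 µM and 267 FPKM at 5 µM, log2 changes of -0.02 and 0.19 that did not pass the threshold as deposited. The change at 2.5 µM was past it, at -0.31, without mitochondrial and small RNA genes in the sum, and at -0.251 with the length trend removed. Its pseudogene row PTGES3P1 was at 14.3, 7.32 and 17.6 FPKM, at most 0.938% of the fragments of PTGES3 when computed with all annotated exons. CHORDC1 (ENSG00000110172, chromosome 11), a heat-inducible cochaperone with zinc-binding CHORD domains, had 6.48, 6.90 and 6.98 FPKM. Its changes of 0.09 and 0.11 stood beside a wider spread of 0.34, and it was the 1 gene with a heat shock element array shown above whose transcript was not called lower as deposited. Without mitochondrial and small RNA genes in the sum CHORDC1 had -0.197 and -0.267, the latter a lower call.

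Of the immunophilins, FKBP4 (ENSG00000004478, chromosome 12) had 11.4 FPKM in DMSO, 11.9 FPKM at 2.5 µM and 17.7 FPKM at 5 µM. It was called higher at 5 µM alone, with a log2 change of 0.63 and a counting interval of 0.50 to 0.76, and the difference of 0.57 between the JG231 libraries compares with a spread of 0.29. Without mitochondrial and small RNA genes in a common FPKM sum the change at 5 µM was 0.248, and the call was lost. FKBP5 (ENSG00000096060, chromosome 6) had 5.78 FPKM in DMSO, 5.26 FPKM at 2.5 µM and 4.52 FPKM at 5 µM. Its log2 changes were -0.13 and -0.35, and the latter, although past the threshold, was within the spread of 0.44 for genes of that level. On 2 other scales it was not, at -0.475 with a common FPKM sum and -0.718 without mitochondrial and small RNA genes in it, and the latter also gave a lower call at 2.5 µM, at -0.419. FKBP4 and FKBP5 have opposite reported effects on glucocorticoid receptor signaling, FKBP5 being the inhibitory one. The ratio of FKBP4 to FKBP5 FPKM was 1.98 in DMSO, 2.26 at 2.5 µM and 3.91 at 5 µM. By distance in log2 change at both doses, the genes nearest to FKBP4 were CIB1, PPP1CA and NAA38, at distances of 0.03, 0.03 and 0.05 over 4484 protein-coding genes with a mean of at least 10 FPKM. With 3 libraries, 14 genes lay within 0.1.

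Between the JG231 libraries, 3 of 10 members, FKBP4, HSP90AB1 and STIP1, were higher at 5 µM than at 2.5 µM by the same rule, beside 26.8% of 14197 genes, and 0 were lower, beside 30.1%. Past a log2 difference of 1 there were 0 members, beside 7.47% of genes higher and 8.09% lower. As deposited the differences were 0.57 for FKBP4 and 0.34 each for HSP90AB1 and STIP1. The calls of HSP90AB1 and STIP1 were lost with a common FPKM sum, at 0.155 and 0.157, and without mitochondrial and small RNA genes in it, at 0.246 and 0.248. FKBP4 remained higher on these scales, at 0.39 and 0.48, and FKBP5 was lower, at -0.39 and -0.30, so that 1 member was higher and 1 lower. All genes were then called higher in 16.9% and 20.3% and lower in 45.1% and 36.2%. On 2 other scales the calls of HSP90AB1 and STIP1 stayed and HSP90AA1 was called higher too. Centred on the median protein-coding gene, HSP90AB1, STIP1 and HSP90AA1 had 0.36, 0.361 and 0.254, beside 28.6% of all genes higher and 28.2% lower. Removal of the length trend gave 0.294, 0.259 and 0.252, beside 25.6% and 27.9%. Both doses share the DMSO library, so their values against it are not independent of each other.

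Ratios within a library do not depend on how libraries are scaled, and they placed the cochaperones against their chaperone. Per 100 FPKM of HSP90AA1 and HSP90AB1 together, AHSA1 had 3.17 FPKM in DMSO, 6.07 FPKM at 2.5 µM and 5.43 FPKM at 5 µM. PTGES3 had 25.6, 39.8 and 37.4 FPKM per 100. FKBP4 had 1.25, 2.05 and 2.48 FPKM per 100. For AHSA1 this was 1.92 and 1.71 times the DMSO ratio, and for FKBP4 1.64 and 1.98 times.
All 8 ratios, those of TRAP1 and the 7 cochaperones, were above their DMSO value at 2.5 µM, by 1.20 times for STIP1 to 1.92 times for AHSA1. At 5 µM 7 of the 8 had a counting interval above 0 on the log2 scale, and FKBP5 was the exception, with a log2 change of 0.00 and an interval from -0.20 to 0.21. The smallest ratio change with an interval above 0 at that dose was 1.23 times for STIP1. The ratios share 1 denominator, which was lower in both JG231 libraries, so they are not independent of each other. A rise of this ratio was common in the table, as 75.5% of the 13785 genes with a mean of at least 1 FPKM had a ratio to cytosolic HSP90 above that in DMSO at 2.5 µM, and 62.9% at 5 µM. These shares ask for no interval. Without an interval, all 8 ratios of the group were above DMSO at 5 µM too, that of FKBP5 by a log2 change of 0.003. With the length trend removed, the log2 change of every ratio remained above 0 at both doses, from 0.09 for CDC37 to 1.17 for FKBP4 at 5 µM.

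**Figure D3:**
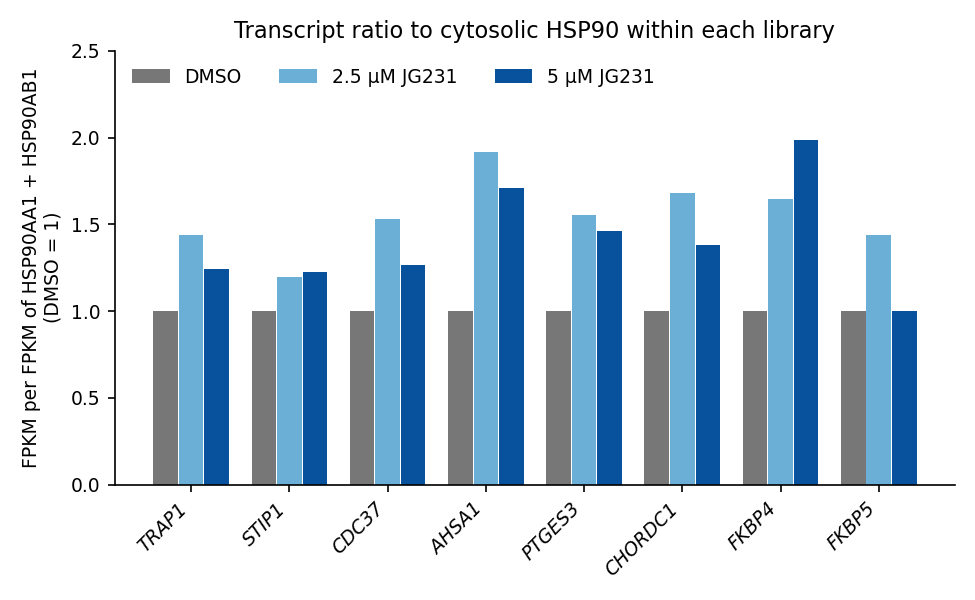
FPKM of each gene divided by the summed FPKM of HSP90AA1 and HSP90AB1 in the same library, relative to DMSO (bars start at 0), for DMSO, 2.5 µM and 5 µM JG231. At 2.5 µM the 8 bars stand above 1, and at 5 µM that of FKBP5 is at the DMSO level.

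Of 34 other HSP90 cochaperones and partner genes listed, 31 could be called at each dose. At 2.5 µM 12 were higher and 4 were lower, 38.7% and 12.9% of those that could be called, beside 36.4% and 43.4% of all genes tested. At 5 µM 17 were higher and 4 were lower, 54.8% and 12.9%, beside 36.5% and 45.1%. The list medians were 0.11 and 0.28. Removal of the length trend gave list medians of 0.05 and 0.09. It gave 13 higher and 6 lower at 2.5 µM, beside 32.7% and 45.4% of all genes, and 14 higher and 4 lower at 5 µM, beside 32.8% and 46.0%. The common FPKM sum without mitochondrial and small RNA genes moves all genes of a library alike, and on it the list medians were -0.18 and -0.09, beside -0.28 and -0.38 for genes with a mean of at least 1 FPKM. On that scale 9 were higher and 15 lower at 2.5 µM, beside 24.8% and 55.6% of all genes, and 6 were higher and 9 lower at 5 µM, beside 23.1% and 59.6%. Among those with the largest positive log2 changes at 5 µM were PIH1D1 (0.98) of the R2TP complex, TTI2 (0.86) of the TTT complex that matures PIKK kinases, and CDC37L1 (0.84), a relative of CDC37. Besides HSP90B1, the most negative were FNIP2 (-1.03), TELO2 (-0.82) and TSC1 (-0.66), of which FNIP2 and TSC1 regulate the HSP90 ATPase. PIH1D1 went from 9.80 FPKM in DMSO to 16.3 FPKM at 2.5 µM and 19.5 FPKM at 5 µM. STUB1, the ubiquitin ligase that binds the tails of HSP70 and HSP90, had 12.7, 12.8 and 16.5 FPKM.

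Other genes known as HSF1 targets were found on both sides of the threshold. Of 14, 13 could be called. At 2.5 µM 5 were higher and 4 were lower, 38.5% and 30.8% beside 36.4% and 43.4% of all genes, with a median of 0.19. At 5 µM 6 were higher and 2 were lower, 46.2% and 15.4% beside 36.5% and 45.1% of all genes, with a median of 0.24. In the common sum without mitochondrial and small RNA genes, 2 were higher and 5 lower at 2.5 µM, with a median of -0.10, beside 24.8% and 55.6% of all genes. On that scale 4 were higher and 6 lower at 5 µM, with a median of -0.14, beside 23.1% and 59.6%. HSPB1 (1.51), DNAJB1 (1.33), HSPA1B (1.05) and HSPA1A (0.97) had the largest positive log2 changes at 5 µM. HSPA1A and HSPA1B are near-identical copies, so counting could split their reads. SERPINH1 (-0.90) and HSPH1 (-0.37), which partners HSP70 as an exchange factor, were the lower ones at 5 µM. At 2.5 µM the constitutive HSP70 gene HSPA8 (-0.47) and HSPE1 (-0.49), the mitochondrial cochaperonin, were lower as well. HSPB1 went from 321 FPKM in DMSO to 733 FPKM at 2.5 µM and 912 FPKM at 5 µM, and DNAJB1 from 36.9 to 70.4 and 93.3 FPKM, both opposite in direction to HSP90AA1 and HSP90AB1. Of 13 such genes with a RefSeq promoter, HSPA8, HSPD1 and SERPINH1 held a 3-unit array, and their log2 changes at 5 µM were -0.07, 0.36 and -0.90. The shorter 2-unit words were found before 9 of the 13, HSPB1, DNAJB1, HSPA1A and HSPA1B among them, beside 14.0% of all genes with an entry.

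**Figure D4:**
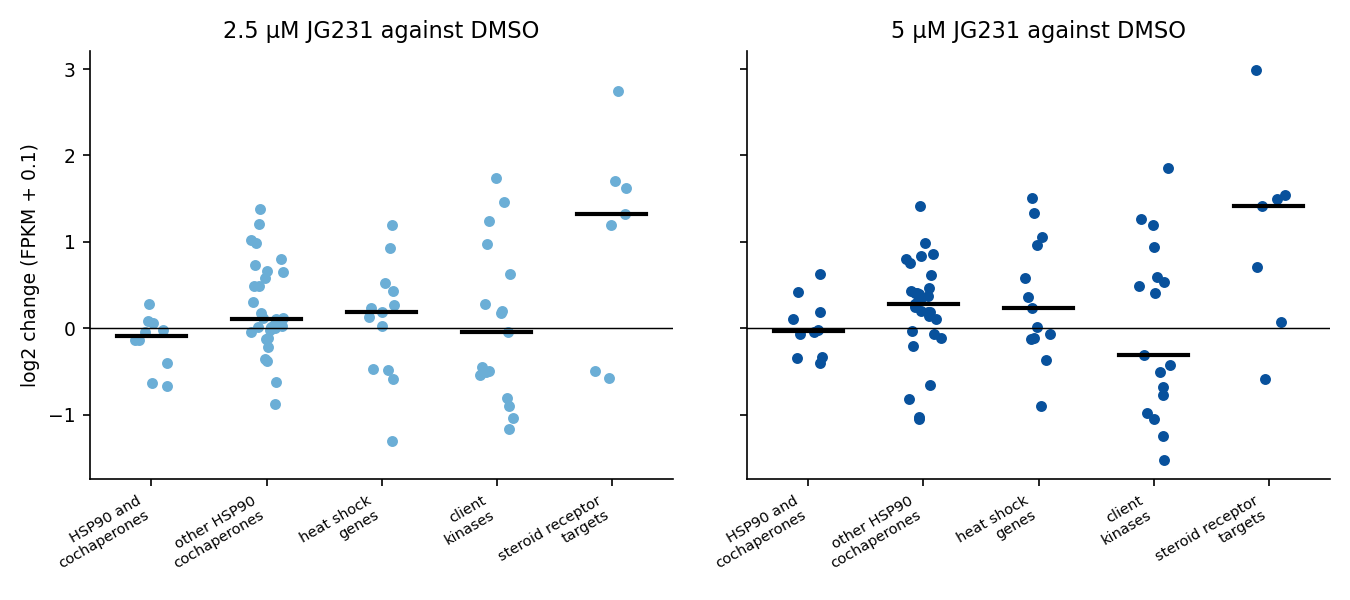
Log2 change against DMSO at 2.5 µM (left) and 5 µM (right) for the genes of 5 lists with a mean of at least 1 FPKM, 1 point per gene, with the median as a bar. The HSP90 group spans -0.67 to 0.28 at 2.5 µM and -0.41 to 0.63 at 5 µM, while heat shock genes and client kinases spread further to both sides of 0.

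Transcripts of kinases that depend on HSP90 were called higher and lower in shares near those of all genes at 2.5 µM. Of 19 client kinases, 7 were higher and 9 lower, 36.8% and 47.4% beside 36.4% and 43.4% of all genes. At 5 µM 8 of 18 with enough signal were higher and 10 were lower, 44.4% and 55.6% beside 36.5% and 45.1%, with a median of -0.37. The common sum without mitochondrial and small RNA genes gave 4 higher and 10 lower at 5 µM, beside 23.1% and 59.6% of all genes, with a median of -0.74. With the length trend removed the median at 5 µM was -0.14, with 7 higher and 8 lower beside 32.8% and 46.0% of all genes, so its size depended on scaling. ARAF (1.85), WEE1 (1.26), CDK6 (1.19) and CHEK1 (0.94) had the largest positive log2 changes at 5 µM, and IGF1R (-1.52), RIPK1 (-1.25), AKT2 (-1.06) and PDPK1 (-0.98) the most negative. These are transcripts and do not report the client proteins, whose stability HSP90 affects.

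Among steroid receptors, the glucocorticoid receptor NR3C1 had 4.72 FPKM in DMSO, 9.92 FPKM at 2.5 µM and 7.82 FPKM at 5 µM, log2 changes of 1.06 and 0.72. The mineralocorticoid receptor NR3C2 had 0.715, 1.75 and 0.598 FPKM, and PGR was listed at 0 throughout. FKBP5 is itself a target of these receptors, and 7 other such targets were examined beside it. At each dose 5 of the 7 were higher, beside 36.4% and 36.5% of all genes, with medians of 1.32 at 2.5 µM and 1.42 at 5 µM (1.03 and 1.06 without mitochondrial and small RNA genes), the largest log2 changes at 5 µM being those of DUSP1 (2.99), PER1 (1.54), ERRFI1 (1.498) and KLF9 (1.42). A pseudocount of 1 gave medians of 1.04 at 2.5 µM and 0.83 at 5 µM for the 7 targets, with 5 still higher at each dose. DUSP1 had 5.48 FPKM in DMSO, 37.3 FPKM at 2.5 µM and 44.1 FPKM at 5 µM. SGK1 was lower, from 18.7 to 12.5 and 12.4 FPKM, and ZBTB16 was called lower at 2.5 µM alone as deposited, with 1.43, 0.986 and 1.51 FPKM in DMSO, 2.5 µM and 5 µM. FKBP5, called lower at 5 µM, was not on the side of most of these targets. DUSP1, PER1, ERRFI1 and KLF9 also respond to stress and growth signals.

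How far the group lay below DMSO depended on scaling. When the libraries were brought to a common FPKM sum that left out mitochondrial and small RNA genes, the median over the table's genes with a mean of at least 1 FPKM was -0.28 at 2.5 µM and -0.38 at 5 µM, and 7 of 10 members were lower at each dose. Over the whole table this scaling called 24.8% of genes higher and 55.6% lower at 2.5 µM, and 23.1% and 59.6% at 5 µM. HSP90AA1 then had log2 changes of -0.93 and -0.79 and HSP90AB1 -0.96 and -0.72, the lowest of the group at 2.5 µM, while at 5 µM FKBP5 also had -0.72. FKBP4 at 5 µM had 0.248 on that scale, below the threshold, and was the highest member at that dose under every scaling tried. HSP90AA1 and HSP90AB1 were lower at both doses under all alternatives that changed the values.

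**Figure D5:**
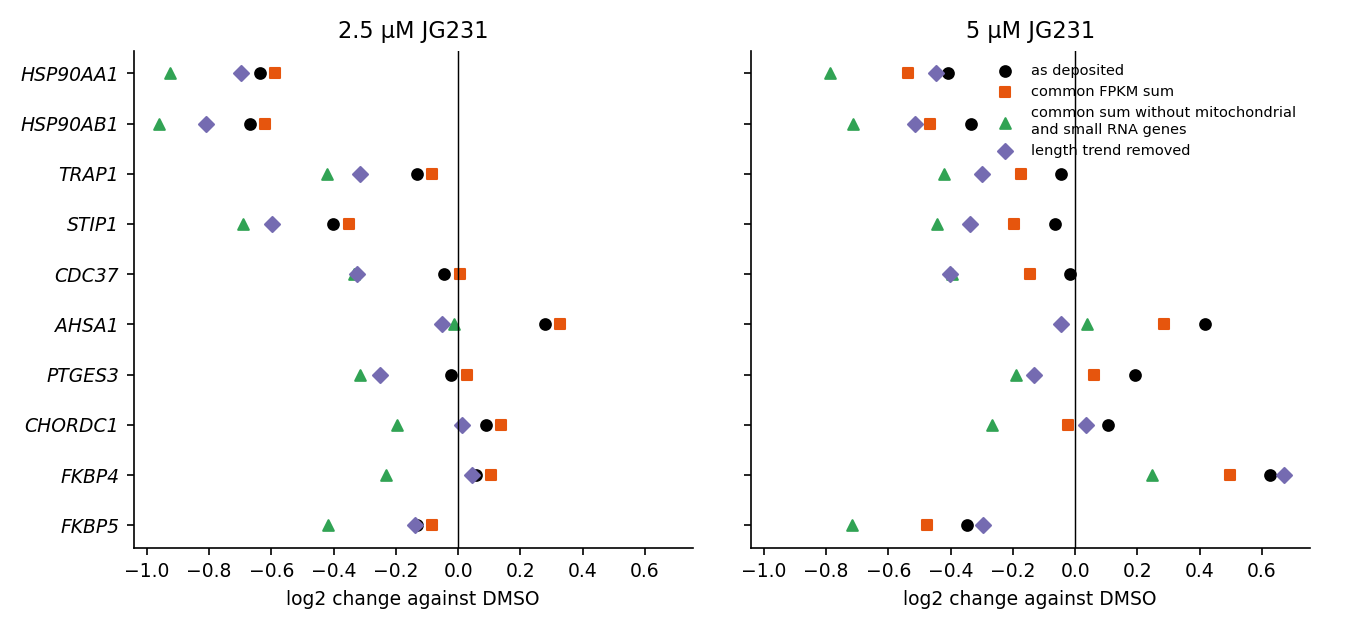
Log2 change of each gene against DMSO at 2.5 µM (left) and 5 µM (right) JG231 as deposited and under 3 other scalings. HSP90AA1 and HSP90AB1 stay left of 0 under each scaling, while AHSA1 lies on both sides of it.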

How the data were processed

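RNA-seq of 3 H660 libraries, 1 per condition, was analysed, and groups were taken from the sample titles. The authors deposited gene-level FPKM values in 1 table. According to the study's methods, they aligned paired-end reads with HISAT and quantified them with StringTie, whereas the submitters' processing notes name HISAT2 and featureCounts, with GRCh38. Versions, annotation release and use of the strand are not given in the sources used here.

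Coordinates and lengths came from GENCODE release 44 (GRCh38), in which 58207 of 58735 identifiers were found. FPKM times exon length moves in steps of 1 fragment in genes with 1 transcript, where 90.5%, 88.2% and 86.7% of values under 50 fragments (DMSO, 2.5 µM, 5 µM) lay within 0.1 of a whole number. Intervals are exact binomial 95% intervals, and those of ratios use the normal approximation to counts. No test or count model was applied. The length trend was removed by lowess (fraction 0.3) over protein-coding genes. Scripts were tested on simulated data.

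All 10 members are reported. Of the other lists, which were written from general knowledge, up to 4 genes with the largest and smallest changes at 5 µM are named, with HSP90B1, STUB1 and steroid receptors, and for the member with the largest change its 3 nearest genes. HSPA8, HSPE1 and ZBTB16 were named after their values were seen. Some genes of these lists are not reported here. Members and lists were chosen with earlier results of these data known. Alternatives were other pseudocounts, filters, thresholds, scalings, centring on the median gene, removal of the length trend and added pseudogene rows. Software comprised scipy 1.17.1 and statsmodels 0.14.6 for statistics, pandas 2.3.3 with numpy 2.4.6 for tables, and matplotlib 3.10.9 for plots, under Python 3.11.15.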

Additional observations from a re-analysis of the deposited data

How the results depend on the processing

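With 1 library per condition, no value has a replicate error, no library could be left out, and intervals cover counting error only. No paired analysis was possible because each group has 1 library. Other pseudocounts (1 and 0.01), no filter on low values, a mean FPKM of at least 5 and added pseudogene rows kept the counts and moved no member beyond its counting interval. With a threshold of 1, 0 members were higher and 0 lower at either dose. With a common FPKM sum the median at 5 µM was -0.16. Without mitochondrial and small RNA genes in that sum, 0 members were higher and 7 lower at either dose, with medians of -0.38 at 2.5 µM and -0.41 at 5 µM, and AHSA1 at 2.5 µM was -0.012. Centred on the median protein-coding gene, 0 members were higher at 2.5 µM, beside 34.4% of all genes. With the length trend removed, 0 members were higher at 2.5 µM and 1 at 5 µM, 6 were lower at either dose, beside 32.7% of all genes higher and 45.4% lower at 2.5 µM and 32.8% and 46.0% at 5 µM. The medians were -0.28 and -0.30, and AHSA1 was -0.051 at 2.5 µM and -0.045 at 5 µM (from 0.28 and 0.42 as deposited). Between the JG231 libraries, 1 member was higher and 1 lower with either common FPKM sum. Centring or removal of the length trend gave 4 higher and 0 lower. The scalings of that comparison were chosen after seeing the data. These alternatives shift whole libraries or genes of like length by construction.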
